A study of Mus musculus with 12 samples.

Results

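The genes followed here were 30 members of sterol and fatty acid synthesis, chosen by name as the enzymes of cholesterol synthesis, the proteins that sense and move sterols, and the core enzymes of fatty acid synthesis. Of the 36229 genes measured, 29 were members: 17 sterol synthesis enzymes, 6 sterol sensing and transport genes (Insig1, Insig2, Srebf1, Srebf2, Scap and Stard4) and 6 fatty acid synthesis genes (Acly, Acaca, Fasn, Scd1, Scd2 and Elovl6). Hmgcs1, the remaining name on the list, was not analysed here. All 29 measured members passed the filter on low values, a mean of at least 10 over the libraries fitted, so none was dropped.

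RNA was sequenced from C57BL/6 mouse embryonic fibroblasts (MEFs) driven towards myotubes with Adeno-MyoD, a virus that delivers the muscle-forming transcription factor MyoD. The groups of whole, mixed cultures were Kdm5a-/-;Rb1-/- (double knockout, DKO), Rb1-/- (Rb1 KO), Kdm5a-/- (Kdm5a KO) and wild type (WT). The groups of myotubes purified from such cultures were DKO and WT. Each of the 6 groups had 2 libraries. Rb1 encodes the retinoblastoma protein, which restrains the cell cycle, and Kdm5a encodes a histone demethylase that binds it. All groups, WT included, were exposed to Adeno-MyoD for 24 h in differentiation medium (DMEM, horse serum at 2%, insulin at 10 µg/ml). They then had 72 h in fresh differentiation medium. Mixed cultures were read from ribosomal-RNA-depleted total RNA with 40-base reads. Purified myotubes were trypsinised, separated by size, left for 24 h in conditioned medium and read from oligo(dT)-selected mRNA with 36-base reads. Purification, recovery, library chemistry and read length cannot be told apart. The labels do not say whether the 2 libraries of a group came from separate embryos or cultures, so p-values measure the spread between these libraries, which may be technical.

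Depth was 8688604 to 41309134 recovered reads a library. Whole-gene counts cannot check the knockout labels, since the part that each allele removes is not stated. Rb1 had 5309 and 5662 in DKO, 4457 and 4448 in Rb1 KO, 5079 and 5193 in Kdm5a KO and 5616 and 5649.5 in WT cultures. Kdm5a had 1319 and 1369.7 in DKO, 2094 and 1886 in Rb1 KO, 1088 and 1192 in Kdm5a KO and 1637 and 1871 in WT cultures. Xist, transcribed in female cells, had 3109.9 to 6933 in DKO and Kdm5a KO cultures and 0 in Rb1 KO and WT cultures. The Y-linked Ddx3y was at 0 in DKO and Kdm5a KO cultures and at 1079.8 to 3319 in Rb1 KO and WT cultures. Sex goes with the Kdm5a genotype and cannot be told apart from it. Summed over 10 skeletal muscle markers, mixed cultures held 176578 to 191828 normalised counts in DKO, 63538 to 64256 in Rb1 KO, 372399 to 390653 in Kdm5a KO and 392992 to 427827 in WT. The sum of 10 fibroblast markers was 12417 to 12695 in DKO, 61859 to 72649 in Rb1 KO, 6157 to 6621 in Kdm5a KO and 10059.9 to 10309.9 in WT. The sum of 10 proliferation markers was 43472 to 44060 in DKO, 22971 to 25026 in Rb1 KO, 2092 to 2277 in Kdm5a KO and 1478 to 1535 in WT. The sum of 8 macrophage markers was 147 to 148 in DKO, 310.4 to 351 in Rb1 KO, 50.6 to 62.3 in Kdm5a KO and 79.0 to 119 in WT, and of the 4 tested in Rb1 KO against WT, 3 rose. In Rb1 KO cultures, where the sterol genes described below were lower than in WT, the muscle sum was lower and the other 3 sums were higher. In DKO cultures the muscle sum was lower and the proliferation sum higher than in WT, while the fibroblast sum was much nearer to WT. Even so, 8 of the 10 fibroblast markers rose in DKO against WT and 0 fell, where 34% of all genes rose. Those rises ran from 1.22-fold for Postn to 19.7-fold for Lum, which was near 0 in WT. The part of these markers in the results was not tested. In RNA from whole cultures, fewer cells of a type and less RNA per cell cannot be told apart.

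Cholesterol is built from acetyl-CoA through mevalonate, isoprenoid units and squalene to lanosterol, which a last set of enzymes trims and reduces. Fatty acid synthesis starts from the same cytosolic acetyl-CoA, made by Acly, and runs through malonyl-CoA to palmitate, which is then lengthened and desaturated. Both arms are known targets of the SREBP transcription factors, encoded by Srebf1 and Srebf2. Scap escorts them out of the endoplasmic reticulum when sterols are scarce, and the Insig proteins hold them there when sterols are plentiful. Growing and fusing muscle cells draw on both arms for membrane lipid.

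The promoters of 5 members on which the results turn are shown, so that the motifs counted below can be seen in place. Mvd, Nsdhl and Acly are the 2 sterol synthesis members and the fatty acid member with the largest change in Rb1 KO against WT cultures among those with a promoter entry, and Insig1 and Fasn were added after their values were seen, since they moved in opposite directions in those cultures. Each runs from 250 bases before to 50 bases after the gene's start, 5′ to 3′ on the gene's own strand, from RefSeq on GRCm38.p6. Mvd lies at chr8:122443373-122443672 on the minus strand, Nsdhl at chrX:72918271-72918570 on the plus strand, Acly at chr11:100527951-100528250 on the minus strand, Insig1 at chr5:28071162-28071461 on the plus strand and Fasn at chr11:120824498-120824797 on the minus strand. Capitals mark CCAAT or its reverse complement ATTGG, and in Insig1 also the E-box CACGTG; the pair CCAAT and ATTGG in Fasn overlaps.
Mvd: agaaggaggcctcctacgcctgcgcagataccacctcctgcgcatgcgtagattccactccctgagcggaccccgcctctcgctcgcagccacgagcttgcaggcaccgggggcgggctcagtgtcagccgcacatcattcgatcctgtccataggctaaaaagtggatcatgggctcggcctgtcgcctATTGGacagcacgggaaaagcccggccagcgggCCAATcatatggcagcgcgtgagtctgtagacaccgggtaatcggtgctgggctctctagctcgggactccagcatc
Nsdhl: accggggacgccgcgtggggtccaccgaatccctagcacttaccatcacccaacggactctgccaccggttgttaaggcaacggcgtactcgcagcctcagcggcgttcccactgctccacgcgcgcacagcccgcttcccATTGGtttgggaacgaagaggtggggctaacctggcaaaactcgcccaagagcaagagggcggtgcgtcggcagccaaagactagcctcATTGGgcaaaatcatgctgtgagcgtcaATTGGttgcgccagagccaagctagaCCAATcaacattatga
Acly: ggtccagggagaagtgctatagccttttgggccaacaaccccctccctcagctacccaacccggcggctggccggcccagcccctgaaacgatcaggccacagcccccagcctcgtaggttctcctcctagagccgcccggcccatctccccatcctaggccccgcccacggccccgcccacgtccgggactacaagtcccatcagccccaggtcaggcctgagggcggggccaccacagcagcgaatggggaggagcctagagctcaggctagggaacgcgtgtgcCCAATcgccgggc
Insig1: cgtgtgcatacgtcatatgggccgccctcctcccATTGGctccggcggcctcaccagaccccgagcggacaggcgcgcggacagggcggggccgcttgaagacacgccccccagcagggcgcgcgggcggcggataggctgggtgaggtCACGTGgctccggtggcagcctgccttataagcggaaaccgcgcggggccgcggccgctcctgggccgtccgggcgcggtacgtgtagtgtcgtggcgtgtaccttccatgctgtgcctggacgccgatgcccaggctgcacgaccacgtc
Fasn: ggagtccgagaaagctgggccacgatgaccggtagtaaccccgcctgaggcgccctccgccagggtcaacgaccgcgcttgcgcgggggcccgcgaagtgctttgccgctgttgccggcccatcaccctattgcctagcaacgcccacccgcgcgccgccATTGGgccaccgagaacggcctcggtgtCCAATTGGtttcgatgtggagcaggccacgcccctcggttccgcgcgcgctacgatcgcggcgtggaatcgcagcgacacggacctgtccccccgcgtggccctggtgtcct

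Promoter entries were found for 23 of the 29 measured members, some with several, 31 in all. Sqle, Fdft1, Fdps, Stard4, Scd1 and Scd2 had no entry, so their promoters were not searched. CCAAT, the motif of the nuclear factor Y complex, was present on either strand in 20 of the 31 (64.5%), and in 37.4% of all 32851 promoters of that length in the table. By member it was found in 19 of 23, among them 13 of 14 sterol synthesis genes and 2 of 4 fatty acid synthesis genes. The E-box CACGTG was in 6 of the 31 (19.4%) and in 7.15% of all promoters, and the sterol regulatory element written as TCACNCCAC was in 0 of the 31 and in 1.24% of all promoters, each searched on both strands. These are matches of letters in a window, with no measure of binding.

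Values below are normalised read counts as deposited, given as replicate 1 and replicate 2, and differences are log2(value + 1) differences ± standard error (SE) from limma, with p-values adjusted over all genes fitted and a threshold of 0.05. The words rose and fell are used of genes that passed. Between genes, levels are compared per kilobase of exon. On that scale the highest members in WT mixed cultures were Scd2 and Scd1, the stearoyl-CoA desaturases, at 3373 and 1989.6 normalised counts per kilobase, followed by Cyp51 at 1226 and Insig1 at 1078. The lowest were Idi1 at 33.6, Elovl6 at 32.5 and Scap at 9.55.

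Most of the sterol arm was lower in Rb1 KO cultures. Of the 17 sterol synthesis genes measured, 15 fell against WT, 0 rose and 2 did not pass, with a median log2 difference of -1.49. The 6 fatty acid synthesis genes were split, 3 lower (Acly, Scd1 and Scd2) and 3 higher (Acaca, Fasn and Elovl6), with a median of -0.19. Of the sensing and transport genes, 3 fell, 2 rose and 1 did not pass. In all, 5 members rose and 21 fell, where 36.8% of the 17199 genes tested rose and 34.3% fell, 71.1% in either direction, around a median of 0.03. As a share of the WT mean, the median sterol synthesis gene stood at 35.7% and 35.8% in the Rb1 KO libraries. The median over the fatty acid synthesis genes was 88.5% and 94.5%, a midpoint between the 3 lower and the 3 higher genes at which no gene stood.

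DKO cultures, set against the same WT libraries, had 2 members higher, 22 lower and 5 that did not pass, where 34% of all genes rose and 33.9% fell, 67.9% together. The sterol arm again had 15 lower, 0 higher and 2 not passed, with a median of -1.26, and its median gene stood at 40.1% and 38.9% of WT in the DKO libraries. Of the fatty acid synthesis genes, 3 fell, 1 rose and 2 did not pass, with a median of -0.61. The gap between the sterol and fatty acid medians was -1.30 in Rb1 KO and -0.64 in DKO cultures, each against WT. Within single libraries, the gap between the arms' median log2 levels had an SD between replicates of 0.0904, pooled over the 6 groups. That SD leaves out the spread among the fatty acid genes, which ran from -2.79 to 0.64 in Rb1 KO against WT. These gaps are descriptions of named members, with no test.

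**Figure D1:**
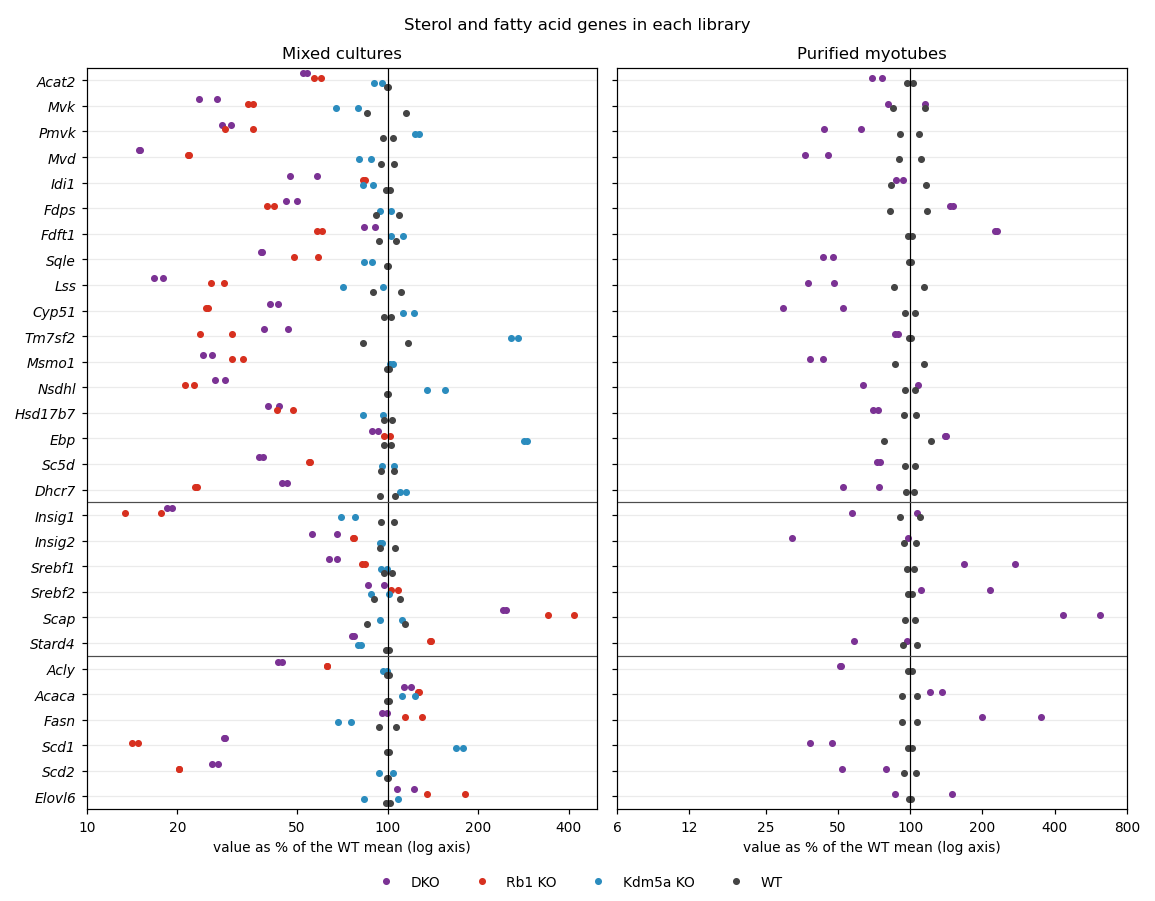
Each member's value in each library as a percentage of the WT mean of the same library type (log axis), for 4 genotypes in mixed cultures (left) and for DKO and WT in purified myotubes (right), 2 points a group, with lines between the sterol synthesis, sensing and transport, and fatty acid genes. In mixed cultures most DKO and Rb1 KO points of the sterol block lie well left of 100%, Scap lies right of it, and Ebp and Tm7sf2 lie far right in Kdm5a KO.

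Among the mevalonate enzymes, Mvd, the decarboxylase that makes the isoprenoid unit, had the largest difference in Rb1 KO cultures. Its values were 125 and 126 in DKO, 184 and 182 in Rb1 KO, 738 and 676 in Kdm5a KO and 799 and 879 in WT cultures. It was 4.57-fold lower in Rb1 KO than in WT cultures (log2 difference -2.19 ± 0.12, adjusted p = 3.23e-09). Mvk, mevalonate kinase, had 132 and 152 in DKO, 199.8 and 193 in Rb1 KO, 447 and 377 in Kdm5a KO and 479 and 642 in WT cultures. It showed a 2.81-fold lower level in Rb1 KO than in WT cultures (-1.49 ± 0.16, adjusted p = 2.9e-06). Pmvk, the kinase after it, had 93.6 and 101 in DKO, 95.9 and 119 in Rb1 KO, 424 and 410.3 in Kdm5a KO and 347 and 321 in WT cultures. It was 3.1-fold lower in Rb1 KO than in WT cultures (-1.63 ± 0.16, adjusted p = 1.22e-06). For each of these 3 genes both Rb1 KO libraries and both DKO libraries lay below both WT libraries. The entry enzyme Acat2, a cytosolic thiolase, had 344 and 354 in DKO, 373 and 394 in Rb1 KO, 628 and 589.5 in Kdm5a KO and 659 and 656 in WT cultures. It fell less in Rb1 KO against WT (-0.78 ± 0.098, adjusted p = 1.2e-05). Idi1, the isomerase of the isoprenoid unit, had 55.8 and 68.3 in DKO, 97.2 and 98.7 in Rb1 KO, 97.7 and 105 in Kdm5a KO and 116 and 119 in WT cultures. It did not pass in Rb1 KO (-0.26 ± 0.22, adjusted p = 0.295), but fell in DKO against WT (-0.92 ± 0.22, adjusted p = 0.00226). Fdps, farnesyl diphosphate synthase, had 107 and 116 in DKO, 97.2 and 92.3 in Rb1 KO, 239 and 219 in Kdm5a KO and 254 and 212 in WT cultures. It fell in Rb1 KO (-1.28 ± 0.17, adjusted p = 2.42e-05) and in DKO (-1.05 ± 0.17, adjusted p = 0.000161), each against the same WT libraries.

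From squalene to lanosterol, Lss, which closes the sterol rings, was lowest in DKO. Its values were 288 and 309 in DKO, 492 and 447 in Rb1 KO, 1660.3 and 1225 in Kdm5a KO and 1909.5 and 1536 in WT cultures. Set against WT it was 5.73-fold lower in DKO (-2.52 ± 0.14, adjusted p = 5.88e-09) and 3.65-fold lower in Rb1 KO (-1.87 ± 0.14, adjusted p = 7.51e-08). Sqle, squalene epoxidase, held 881 and 876 in DKO, 1123 and 1359 in Rb1 KO, 2039 and 1929.5 in Kdm5a KO and 2319.9 and 2298 in WT cultures. It too was lower in each DKO library than in each Rb1 KO library. Fdft1, squalene synthase, the first step given over to sterols, had the other order, with 419 and 382 in DKO, 278 and 268 in Rb1 KO, 515 and 473 in Kdm5a KO and 491 and 429.6 in WT cultures. It fell in Rb1 KO (-0.75 ± 0.12, adjusted p = 7.93e-05) and did not pass in DKO against WT (-0.20 ± 0.12, adjusted p = 0.151). Fdft1 shares exon bases with Ctsb on the other strand. No source used here gives the strand of these reads, so its counts are uncertain.

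Of the 8 trimming and reducing enzymes after lanosterol, 7 fell in Rb1 KO and in DKO cultures against WT. Cyp51, the lanosterol demethylase, had 2204 and 2339.6 in DKO, 1352 and 1366 in Rb1 KO, 6611 and 6062 in Kdm5a KO and 5276 and 5549 in WT cultures. It was 3.98-fold lower in Rb1 KO (-1.99 ± 0.061, adjusted p = 2.01e-11) and 2.38-fold lower in DKO (-1.25 ± 0.061, adjusted p = 2.15e-09) than in WT. Dhcr7, which reduces the last precursor to cholesterol, had 789.6 and 759 in DKO, 397 and 390.1 in Rb1 KO, 1968 and 1875 in Kdm5a KO and 1609 and 1809 in WT cultures. The DKO libraries lay between those of Rb1 KO and WT, with no overlap between any of these 3 groups. The X-linked Nsdhl, a dehydrogenase that with Msmo1 and Hsd17b7 removes methyl groups, had 499 and 536 in DKO, 396 and 424 in Rb1 KO, 2883 and 2517 in Kdm5a KO and 1870.1 and 1855 in WT cultures. It was 4.54-fold lower in Rb1 KO than in WT cultures (-2.18 ± 0.086, adjusted p = 1.92e-10). Msmo1 had 794 and 741 in DKO, 1006 and 929 in Rb1 KO, 3181 and 3109 in Kdm5a KO and 3074 and 3033 in WT cultures. Like Lss and Sqle, it was lower in DKO than in Rb1 KO libraries. Tm7sf2, a sterol reductase, fell in Rb1 KO (-1.86 ± 0.19, adjusted p = 1.38e-06), Hsd17b7 likewise (-1.13 ± 0.089, adjusted p = 1.35e-07), and so did Sc5d, a desaturase (-0.86 ± 0.083, adjusted p = 9.3e-07). The exception was Ebp, the sterol isomerase, with 346 and 363 in DKO, 379 and 396 in Rb1 KO, 1133 and 1106 in Kdm5a KO and 401 and 379 in WT cultures. Its Rb1 KO and WT libraries overlapped (-0.01 ± 0.097, adjusted p = 0.935), and in DKO it did not pass against WT (-0.14 ± 0.097, adjusted p = 0.224).

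**Figure D2:**
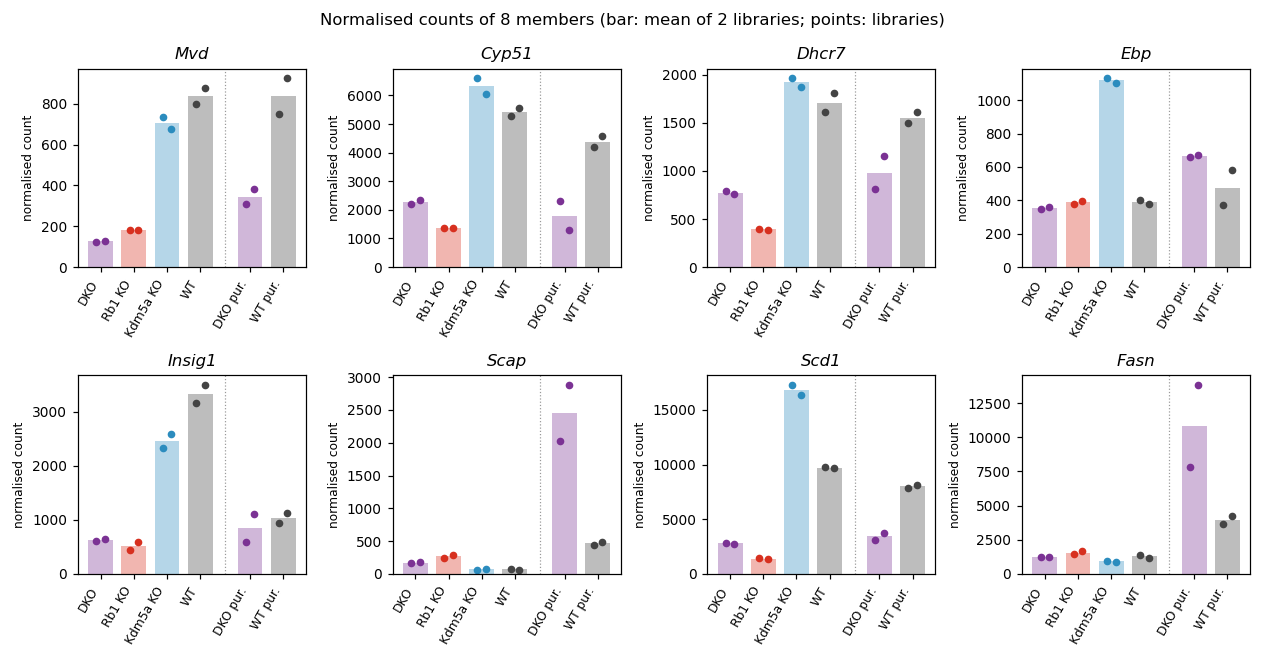
Normalised counts of 8 members in every library (points) with group means (bars), mixed DKO, Rb1 KO, Kdm5a KO and WT left of the dotted line and purified DKO and WT right of it. Mvd, Cyp51, Dhcr7, Insig1 and Scd1 are lower in mixed DKO and Rb1 KO than in WT, Ebp stands out in Kdm5a KO, and Scap and Fasn are highest in purified DKO.

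Among the genes of sterol sensing, Insig1, the retention protein that is itself a known SREBP target, fell furthest in Rb1 KO and in DKO cultures. It had 615 and 640.4 in DKO, 447 and 588 in Rb1 KO, 2330.4 and 2586 in Kdm5a KO and 3169 and 3499.5 in WT cultures. It was 6.48-fold lower in Rb1 KO (-2.70 ± 0.11, adjusted p = 3.1e-10) and 5.3-fold lower in DKO (-2.41 ± 0.11, adjusted p = 1.37e-09) than in WT. Insig2, its relative, had 608 and 504 in DKO, 686 and 694 in Rb1 KO, 846 and 857 in Kdm5a KO and 844 and 952 in WT cultures. It fell less in Rb1 KO against WT (-0.38 ± 0.10, adjusted p = 0.00538). The transcription factor genes had smaller differences than Insig1. Srebf2 had 1530.2 and 1722 in DKO, 1828 and 1927 in Rb1 KO, 1793 and 1559.9 in Kdm5a KO and 1956 and 1599 in WT cultures, and its Rb1 KO and WT libraries overlapped (0.09 ± 0.10, adjusted p = 0.46). Srebf1 had 956 and 1015 in DKO, 1253 and 1221 in Rb1 KO, 1483 and 1422 in Kdm5a KO and 1536 and 1449 in WT cultures. Against WT it fell by a small amount in Rb1 KO (-0.27 ± 0.071, adjusted p = 0.00439) and in DKO (-0.60 ± 0.071, adjusted p = 8.26e-06). Scap, the escort, went the other way, with 171 and 176 in DKO, 242 and 296 in Rb1 KO, 66.9 and 79.1 in Kdm5a KO and 81.4 and 60.8 in WT cultures. It was 3.76-fold higher in Rb1 KO (1.91 ± 0.21, adjusted p = 3.77e-06) and 2.44-fold higher in DKO (1.29 ± 0.21, adjusted p = 0.00015) than in WT. It was the lowest member per kilobase in WT and shares exon bases with 5830462I19Rik on the other strand. Stard4, a carrier of cholesterol between membranes, had 665 and 655 in DKO, 1194 and 1192 in Rb1 KO, 699.9 and 684 in Kdm5a KO and 849 and 871 in WT cultures. It rose in Rb1 KO (0.47 ± 0.077, adjusted p = 0.000116) and fell in DKO (-0.38 ± 0.077, adjusted p = 0.000717), each against WT.

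In the fatty acid arm of Rb1 KO cultures Scd1, Scd2 and Acly fell, and Acaca, Fasn and Elovl6 rose. Other desaturase and elongase genes, on the list described below, did not all go the same way as these. Scd1 had 2808 and 2784 in DKO, 1443 and 1379 in Rb1 KO, 17291 and 16404 in Kdm5a KO and 9816 and 9650.0 in WT cultures. It was 6.89-fold lower in Rb1 KO than in WT, the largest fall of any member there (-2.79 ± 0.051, adjusted p = 2.94e-13). Its paralog Scd2 had 5028 and 4820.2 in DKO, 3728 and 3739 in Rb1 KO, 19225 and 17264 in Kdm5a KO and 18476 and 18381 in WT cultures. It was 4.93-fold lower in Rb1 KO than in WT (-2.30 ± 0.054, adjusted p = 2.49e-12), and reads that both genes match could be split between them. Acly, the citrate lyase that feeds both arms, had 1229.8 and 1192 in DKO, 1727 and 1736 in Rb1 KO, 2734 and 2669 in Kdm5a KO and 2778 and 2737 in WT cultures. It fell in Rb1 KO (-0.67 ± 0.059, adjusted p = 3.62e-07) and DKO (-1.19 ± 0.059, adjusted p = 2.29e-09) against WT. Fasn, which builds palmitate, had 1227 and 1274 in DKO, 1469 and 1668 in Rb1 KO, 972 and 879 in Kdm5a KO and 1369 and 1202 in WT cultures. It rose slightly in Rb1 KO (0.29 ± 0.09, adjusted p = 0.0124) and its DKO and WT libraries overlapped (-0.04 ± 0.09, adjusted p = 0.731). Acaca, which makes malonyl-CoA, had 929 and 981 in DKO, 1038 and 1034 in Rb1 KO, 917 and 1012 in Kdm5a KO and 814 and 826 in WT cultures and rose in Rb1 KO against WT (0.34 ± 0.08, adjusted p = 0.00209). Elovl6, an elongase, had 255 and 224 in DKO, 282 and 377 in Rb1 KO, 226 and 174 in Kdm5a KO and 212 and 206 in WT cultures and rose there too (0.64 ± 0.18, adjusted p = 0.00599). Fasn did not pass without Rb1 KO replicate 2 (0.20, adjusted p = 0.124) or without WT replicate 2 (0.19, adjusted p = 0.106), and Elovl6 did not pass without Rb1 KO replicate 2 (0.43, adjusted p = 0.0801). Acaca in DKO against WT did not pass without DKO replicate 1 or 2 or without WT replicate 1 or 2 (adjusted p 0.0517 to 0.174). Adipocyte markers bear on this arm. Adipoq, Plin1, Cfd, Cidec, Lep and Retn were each at 14.9 or less in every one of the 12 libraries. Fabp4 had 21.6 and 22.6 in Rb1 KO and 0 in both WT mixed libraries. Cebpa had 285 and 211 in Rb1 KO and 239 and 229 in WT cultures. Lipe had 77 and 85.1 in Rb1 KO and 68.2 and 65 in WT cultures. Pparg had 14.9 and 26.2 in Rb1 KO and 39.5 and 41.6 in WT cultures. The sum of the list of 10 was 258.4 to 290.4 in DKO, 346 to 420 in Rb1 KO, 385 to 401 in Kdm5a KO and 352 to 353 in WT mixed cultures.

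With Kdm5a lost on top of Rb1, members moved in both directions. In DKO against Rb1 KO cultures, a comparison that shares the Rb1 KO libraries with the one above, 8 members rose, 13 fell and 8 did not pass, where 23.1% of all genes rose and 24.2% fell, 47.3% together. Within the sterol arm 5 rose and 7 fell, around a median of -0.13, so DKO was higher for some enzymes and lower for others. Scd1 rose 1.98-fold (0.99 ± 0.051, adjusted p = 1.21e-08), Dhcr7 1.96-fold (0.97 ± 0.081, adjusted p = 8.63e-07) and Cyp51 1.67-fold (0.74 ± 0.061, adjusted p = 8.48e-07). Smaller rises were those of Tm7sf2 (0.66 ± 0.19), Fdft1 (0.55 ± 0.12), Scd2 (0.40 ± 0.054), Nsdhl (0.33 ± 0.086) and Insig1 (0.29 ± 0.11). The falls were led by Stard4 (-0.85 ± 0.077, adjusted p = 1.74e-06), with Idi1 (-0.66 ± 0.22), Lss (-0.65 ± 0.14), Scap (-0.62 ± 0.21), Mvd (-0.54 ± 0.12), Sc5d (-0.54 ± 0.083), Acly (-0.52 ± 0.059), Sqle (-0.49 ± 0.085), Mvk (-0.47 ± 0.16), Msmo1 (-0.33 ± 0.068), Srebf1 (-0.33 ± 0.071), Fasn (-0.32 ± 0.09) and Insig2 (-0.32 ± 0.10) after it. Over the same 2 groups, 10 of 10 muscle markers rose and 8 of 10 fibroblast markers fell in DKO against Rb1 KO, and their part in these differences was not tested.

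Several of those calls were lost when 1 library was left out. Mvk missed without any 1 of the 4 DKO and Rb1 KO libraries, at -0.57 to -0.37 (adjusted p 0.0503 to 0.197). Idi1 missed without DKO replicate 1 or either Rb1 KO library, at -0.67 to -0.51 (adjusted p 0.0681 to 0.192). Tm7sf2 missed without DKO replicate 1 (0.53) or Rb1 KO replicate 1 (0.48), Nsdhl without DKO replicate 2 (0.28), and Fasn without DKO replicate 1 (-0.30) or Rb1 KO replicate 2 (-0.23). Scap missed without DKO replicate 1 or 2 or Rb1 KO replicate 2 (-0.64 to -0.48). Insig2 moved to -0.18 without DKO replicate 2 and also missed without either Rb1 KO library. Insig1, whose Rb1 KO replicates were 447 and 588, moved to 0.09 (adjusted p = 0.474) without Rb1 KO replicate 1 and to 0.49 without Rb1 KO replicate 2, and missed without any 1 of the 4 DKO and Kdm5a KO libraries. With DESeq2, Mvk, Idi1 and Insig2 missed (adjusted p 0.0614 to 0.0652), Mvk and Insig1 missed with no filter on low values, and Insig1 missed with a pseudocount of 0.5 and with the fit of the compared groups alone. The other 13 of the 21 calls passed with any 1 of the 8 libraries left out.

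**Figure D3:**
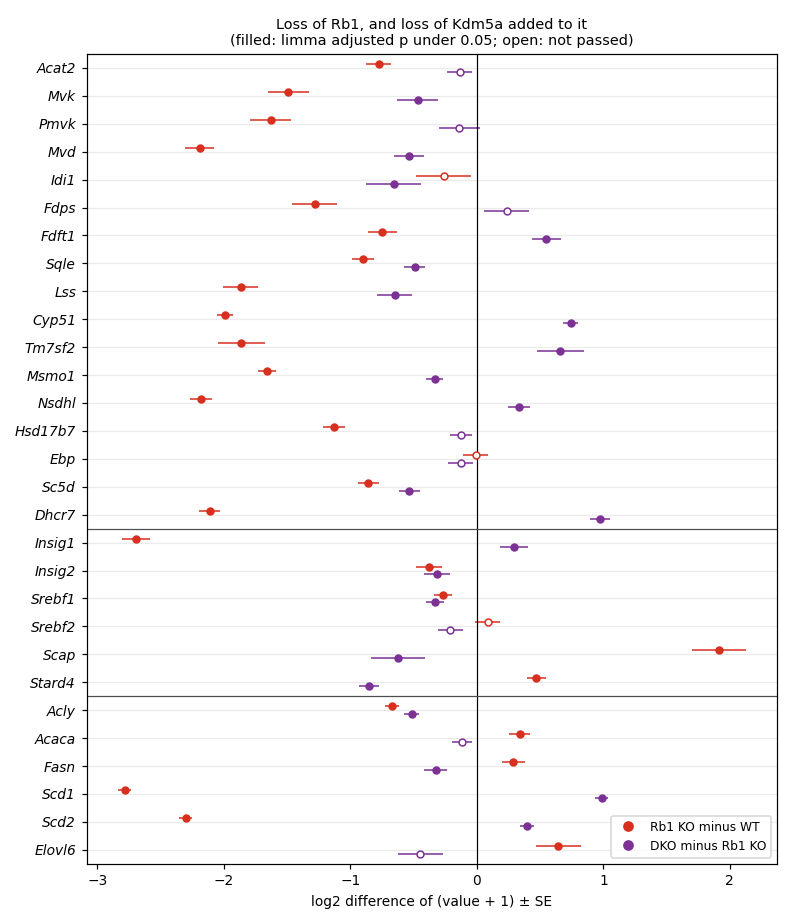
Log2 difference of each member with its SE, for Rb1 KO minus WT (red) and DKO minus Rb1 KO (purple) in mixed cultures, filled where limma's adjusted p was under 0.05; the comparisons share the Rb1 KO libraries. The red points of the sterol block lie left of 0 except near Ebp, while the purple points lie on both sides, from -0.85 (Stard4) to 0.99 (Scd1).

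With Kdm5a alone lost, 31% of members passed, near the share of all genes, and the largest differences were rises of Ebp and Tm7sf2. In Kdm5a KO against WT cultures 6 members rose, 3 fell and 20 did not pass, where 13.4% of all genes rose and 13.8% fell, 27.2% together, and the sterol arm had 4 higher, 0 lower and 13 not passed around a median of 0.00. Ebp was 2.87-fold higher, at 1133 and 1106 in Kdm5a KO and 401 and 379 in WT cultures (1.52 ± 0.097, adjusted p = 5.77e-07). Tm7sf2 was 2.67-fold higher, at 909.7 and 860.5 in Kdm5a KO and 394 and 278 in WT cultures (1.42 ± 0.19, adjusted p = 0.000155). Vps51, whose exons overlap those of Tm7sf2 on the same strand, had 452 and 510.4 in Kdm5a KO and 506 and 472 in WT cultures. Nsdhl (0.53 ± 0.086, adjusted p = 0.000677) and Scd1 (0.79 ± 0.051, adjusted p = 6.05e-07) also rose. Ebp and Nsdhl are X-linked, and for these and all other genes sex and the loss of Kdm5a cannot be told apart. The remaining calls were small: Cyp51 (0.23 ± 0.061, adjusted p = 0.0165) and Acaca (0.23 ± 0.08, adjusted p = 0.0478) rose, and Fasn (-0.47 ± 0.09, adjusted p = 0.00212), Insig1 (-0.44 ± 0.11, adjusted p = 0.0119) and Stard4 (-0.31 ± 0.077, adjusted p = 0.00958) fell. Cyp51 missed without Kdm5a KO replicate 1 (0.16) or WT replicate 1 (0.19), Insig1 without Kdm5a KO replicate 1 (-0.37) or WT replicate 2 (-0.37), Stard4 without Kdm5a KO replicate 2 (-0.30), and Acaca without any 1 of 7 of the 8 libraries, all but Kdm5a KO replicate 1 (0.16 to 0.24). Acaca also missed with DESeq2, with no filter on low values, with sample weights and with the fit of the compared groups alone (adjusted p 0.0654 to 0.103).

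With Rb1 lost in cells that lacked Kdm5a, the sterol arm was lower throughout. In DKO against Kdm5a KO cultures all 17 sterol synthesis genes measured fell, with a median of -1.48, where 33.4% of all genes fell, 33.7% rose and 67.2% changed in either direction. The largest were Tm7sf2 (-2.62 ± 0.19, adjusted p = 6.75e-08), Mvd (-2.48 ± 0.12, adjusted p = 1.6e-09), Nsdhl (-2.38 ± 0.086, adjusted p = 1.74e-10) and Lss (-2.25 ± 0.14, adjusted p = 1.7e-08). Ebp, at 346 and 363 in DKO and 1133 and 1106 in Kdm5a KO cultures, fell as well (-1.66 ± 0.097, adjusted p = 1.07e-08). Outside that arm Insig1, Insig2 and Srebf1 fell and Scap rose, Scd1 (-2.59 ± 0.051, adjusted p = 3.21e-12), Scd2 and Acly fell, and Fasn rose (0.43 ± 0.09, adjusted p = 0.000898). Fdft1 missed without Kdm5a KO replicate 1 (-0.24) or without DKO replicate 1 (-0.37) or 2 (-0.24), and Idi1 without Kdm5a KO replicate 2 (-0.65) or DKO replicate 1 (-0.56). Fdft1 also missed with DESeq2 (adjusted p = 0.0529).

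The interaction asks whether the losses of Rb1 and Kdm5a add up on the log2 scale, as DKO minus Rb1 KO minus Kdm5a KO plus WT. It passed for 14 members, 6 above and 8 below 0, where 18.8% of all genes were above and 19.5% below, 38.3% together. Ebp had the largest departure, below the sum (-1.65 ± 0.14, adjusted p = 1.6e-06), with its high values in Kdm5a KO cultures alone among the 4 genotypes. Above the sum were Dhcr7 (0.80 ± 0.11, adjusted p = 0.000145), Insig1 (0.73 ± 0.16, adjusted p = 0.00298), Cyp51 (0.51 ± 0.087, adjusted p = 0.00053) and Scd2 (0.42 ± 0.077, adjusted p = 0.00104). Below it were Sc5d (-0.54 ± 0.12, adjusted p = 0.00302), Stard4 (-0.54 ± 0.11, adjusted p = 0.00182), Acly (-0.49 ± 0.083, adjusted p = 0.000575) and Msmo1 (-0.38 ± 0.097, adjusted p = 0.00845). The other 5, Fdft1, Tm7sf2, Srebf1, Acaca and Scd1, each missed with 5 to 7 of the 8 single libraries left out (adjusted p 0.0523 to 0.191), DKO replicate 2 among them each time. Each gene also missed in 1 to 5 of the settings that keep every library, DESeq2 or no filter among them. In the same interaction, 10 of 10 muscle markers passed above 0 and 9 of 10 fibroblast markers below it, with medians of 1.78 and -1.72. The part of these markers in the members' departures was not tested.

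**Figure D4:**
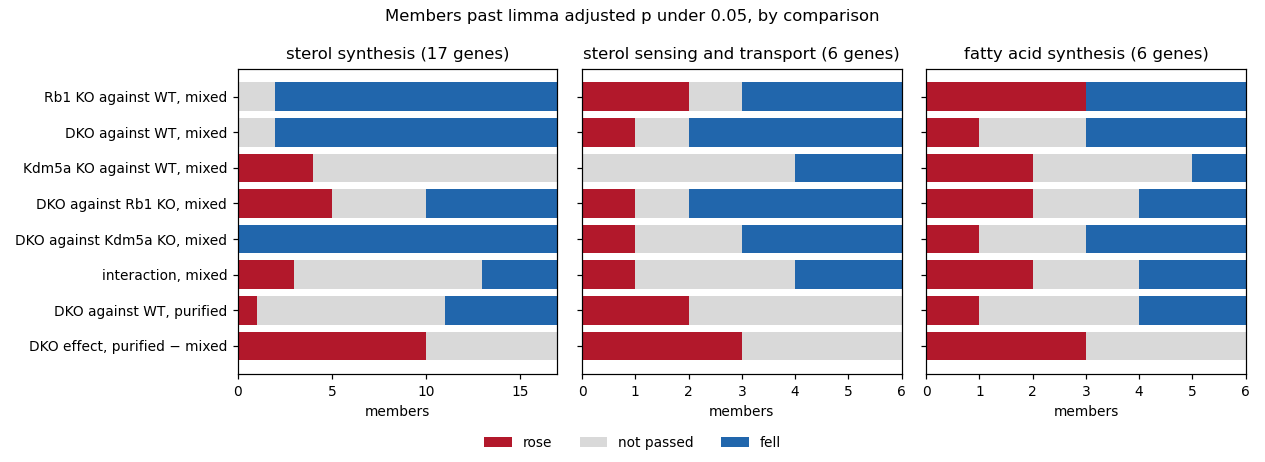
Number of members that rose, did not pass and fell (limma, adjusted p under 0.05) in each comparison, for the sterol synthesis, sensing and transport, and fatty acid synthesis genes. The sterol panel has 15 falls in Rb1 KO and DKO against WT and 17 in DKO against Kdm5a KO, and 10 members whose DKO effect was higher in purified than in mixed libraries.

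In purified myotubes 6 sterol synthesis genes were lower in DKO, while Scap, Srebf1, Fdft1 and Fasn were higher. Against purified WT, 4 members rose, 8 fell and 17 did not pass, where 21% of the 16670 genes tested rose and 18.6% fell, 39.6% together. The share of members that passed in either direction, 41.4%, was near that of all genes. The sterol arm had 6 lower, 1 higher and 10 not passed, with a median of -0.45, and its median gene stood at 70% and 74.2% of WT. The median over the fatty acid arm was 69.2% and 100% of WT. The falls were Cyp51 (-1.34 ± 0.32, adjusted p = 0.0266), Mvd (-1.28 ± 0.24, adjusted p = 0.0127), Msmo1 (-1.28 ± 0.23, adjusted p = 0.0121), Lss (-1.22 ± 0.26, adjusted p = 0.0184), Sqle (-1.14 ± 0.19, adjusted p = 0.00958) and Pmvk (-0.93 ± 0.27, adjusted p = 0.0463). Mvd had 307 and 382 in purified DKO, against 752 and 927 in purified WT myotubes. Sqle had 629 and 577 in purified DKO, against 1313 and 1338 in purified WT myotubes. Neither gene's groups overlapped. Fdft1 rose, with 679.8 and 663 in purified DKO, against 288 and 301 in purified WT myotubes (1.19 ± 0.20, adjusted p = 0.01). Its overlap partner Ctsb had 4731 and 11575 in purified DKO, against 4383 and 4178 in purified WT myotubes.

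Of the regulators, Scap was 5.17-fold higher, with 2025 and 2882 in purified DKO, against 443 and 491 in purified WT myotubes (2.37 ± 0.25, adjusted p = 0.00283). Srebf1, which encodes the SREBP form best known for fatty acid synthesis, had 1877 and 3068 in purified DKO, against 1085 and 1163 in purified WT myotubes, and it rose (1.09 ± 0.29, adjusted p = 0.0342). Srebf2 had 5554 and 10779.6 in purified DKO, against 4895 and 5089.8 in purified WT myotubes, and it did not pass (0.63 ± 0.35, adjusted p = 0.203). In Srebf1 and Srebf2 alike, DKO replicate 2 was the higher library by a wide margin. Insig1 had 594 and 1101 in purified DKO, against 938 and 1133 in purified WT myotubes, so that the groups overlapped (-0.35 ± 0.34, adjusted p = 0.446). In the fatty acid arm Fasn was 2.66-fold higher, with 7843 and 13838 in purified DKO, against 3648 and 4209 in purified WT myotubes (1.41 ± 0.32, adjusted p = 0.0231). Scd1 fell, with 3072 and 3785 in purified DKO, against 7881 and 8157 in purified WT myotubes (-1.23 ± 0.20, adjusted p = 0.00947). Acly fell, with 1816 and 1796 in purified DKO, against 3447 and 3583 in purified WT myotubes (-0.96 ± 0.18, adjusted p = 0.0127). Scd2, Acaca and Elovl6 did not pass.

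Of these 12 purified calls, 11 were lost when either WT library was left out, although each kept its sign. Lss, with the widest range, was at -1.42 to -1.02. The difference of Sqle was -1.15 to -1.12, that of Acly -0.99 to -0.93 and that of Scd1 -1.26 to -1.21. By construction such a fit takes its spread from the DKO pair alone, and one without a DKO library takes it from the WT pair alone. Without WT purified replicate 1, or without WT purified replicate 2, 1 member, Scap, passed, and 1983 or 2170 genes in all, against 6598 with the 4 libraries. Pmvk also missed with edgeR, DESeq2, TMM scaling, sample weights and no filter on low values (adjusted p 0.0502 to 0.0538). Without DKO purified replicate 1 there were 20 members and 11574 genes, and without DKO purified replicate 2 there were 19 members and 10310 genes. The DKO purified libraries differed most from each other: the median absolute log2 difference between replicates over the 29 members was 0.352 there, against 0.0655 to 0.155 in the other 5 groups. The largest, 1.6, was that of Insig2, with 437 and 143 in purified DKO, against 471 and 422 in purified WT myotubes. Summed muscle markers were 202867 to 218437 in purified DKO and 521442 to 527421 in purified WT myotubes. Proliferation markers summed to 42710.4 to 52549 in purified DKO and 2170.4 to 2342 in purified WT, and fibroblast markers to 8563 to 10214 in purified DKO and 11375 to 13329 in purified WT. All 10 proliferation markers rose in purified DKO, where 21% of all genes rose and 18.6% fell. Of the 10 muscle markers, 1 rose, 5 fell and 4 did not pass. Ckm was higher, with 2306 and 2298 in purified DKO, against 463 and 432 in purified WT myotubes. Of the 8 fibroblast markers tested, 3 rose, 3 fell and 2 did not pass. The 10 adipocyte markers summed to 327 to 486 in purified DKO and 325 to 348 in purified WT, and the 8 macrophage markers to 429 to 1057 in purified DKO and 130.2 to 158 in purified WT. The macrophage sum in purified DKO was almost all Cd68, a lysosomal protein gene, with 416 and 1043 in purified DKO, against 42.8 and 53.4 in purified WT myotubes, and the other 7 markers were under 10 there. Csf1r, the receptor that marks macrophages, had 8.13 and 5.23 in purified DKO, against 81.9 and 99.4 in purified WT myotubes. The part of these markers in the sterol and fatty acid differences was not tested.

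**Figure D5:**
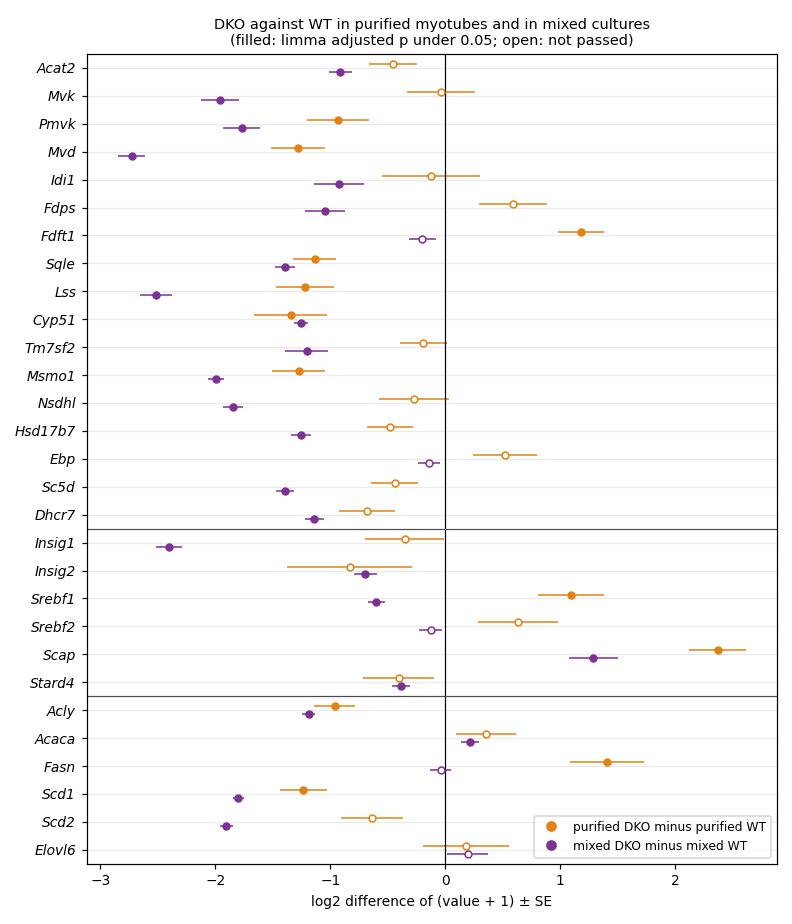
Log2 difference of each member between DKO and WT with its SE, in purified myotubes (orange) and mixed cultures (purple), filled where limma's adjusted p was under 0.05. Most orange points lie right of the purple ones, by 2.06 for Insig1 and 1.92 for Mvk, while Cyp51, Insig2, Stard4 and Elovl6 have orange points close to the purple.

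The difference between the DKO effects in the 2 library types was tested in a fit over all 12 libraries. It was above 0, meaning a DKO difference that was higher in purified than in mixed libraries, for 16 members and below 0 for 0, where 11.6% of the 17273 genes tested were above and 13.2% below, 24.8% together. The members' median was 0.80 and that of all genes -0.06. This fit gives each gene a spread shared by all groups, while the purified DKO replicates lay further apart than the others. Over all genes, their median absolute log2 difference was 0.508, against 0.106 to 0.185 in the other groups. The SEs and adjusted p-values of this difference may therefore be too small. Among the 16, 10 were sterol synthesis genes, led by Mvk (1.92 ± 0.32, adjusted p = 0.00232), Fdps (1.64 ± 0.30, adjusted p = 0.00357) and Nsdhl (1.58 ± 0.29, adjusted p = 0.00363). Mvk shows what this looks like in the values. It had 314 and 447 in purified DKO, against 329 and 447 in purified WT myotubes. In mixed cultures it had 132 and 152 in DKO, against 479 and 642 in WT. Insig1 (2.06 ± 0.35, adjusted p = 0.00247), Srebf1 (1.69 ± 0.26, adjusted p = 0.00151) and Scap (1.08 ± 0.31, adjusted p = 0.0289) were the sensing genes among them, and Fasn (1.45 ± 0.31, adjusted p = 0.00755), Scd2 (1.27 ± 0.24, adjusted p = 0.00402) and Scd1 (0.57 ± 0.16, adjusted p = 0.0243) the fatty acid genes. Cyp51 did not pass (-0.09 ± 0.30, adjusted p = 0.852), although without DKO purified replicate 2 it was 0.33 (adjusted p = 0.0203), nor did Sqle (0.26 ± 0.16, adjusted p = 0.283) or Acly (0.23 ± 0.13, adjusted p = 0.219). Without 1 library, Tm7sf2, Msmo1, Hsd17b7, Scap or Scd1 missed in 1 to 6 of the 12 fits (adjusted p 0.0536 to 0.104), among them those without DKO mixed replicate 1 for Hsd17b7 and without DKO mixed replicate 2 for the other 4; Tm7sf2, Msmo1, Hsd17b7 and Scap also missed with sample weights (adjusted p 0.0581 to 0.147). Purified and mixed libraries differ in chemistry, read length and handling as well as in cells, and these cannot be told apart.

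Of the 29 members, 10 share exon bases with another annotated gene (Idi1, Fdps, Fdft1, Lss, Cyp51, Tm7sf2, Srebf1, Scap, Scd2 and Elovl6), so their counts could hold reads of the other gene. Among the 19 without shared bases, 14 fell and 3 rose in Rb1 KO against WT, where 34.3% of all genes fell and 36.8% rose. In DKO against WT, 15 of them fell and 1 rose, where 33.9% of all genes fell and 34% rose. The DKO effect was higher in purified than in mixed libraries for 9 of the 19, and for 11.6% of all genes. Of the 11 sterol synthesis genes without shared bases, 10 fell in Rb1 KO against WT, the exception being Ebp, where 34.3% of all genes fell.

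A list of 33 other sterol and fatty acid genes, covering lipoprotein uptake, sterol export, oxysterols, SREBP processing, desaturases and elongases, moved in both directions. Of its 32 genes tested in Rb1 KO against WT cultures, 11 rose, 13 fell and 8 did not pass, with a median of -0.12, so that 75% passed, against 71.1% of all genes. In DKO against WT cultures 9 rose, 19 fell and 4 did not pass, with a median of -0.52, and 87.5% passed, against 67.9% of all genes. In purified DKO against WT 7 rose, 7 fell and 18 did not pass, with a median of -0.20, and 43.8% passed, against 39.6% of all genes. The shares in Rb1 KO and in purified DKO were near those of all genes. Ch25h, which makes an oxysterol, had the largest difference in Rb1 KO, with 64.8 and 64.3 in Rb1 KO and 1.2 and 1.07, a single read each, in WT cultures (adjusted p = 7.28e-05, limma). Thrsp, a regulator of lipogenesis, had 1.35 and 2.72 in Rb1 KO and 77.8 and 82.1 in WT cultures (adjusted p = 4.41e-07, limma). Elovl7, an elongase of long fatty acids, had 185 and 167 in Rb1 KO and 14.4 and 14.9 in WT cultures (3.50 ± 0.25, adjusted p = 4.85e-08). In purified libraries it had 79.7 and 67 in purified DKO, against 11.2 and 9.94 in purified WT myotubes (2.68 ± 0.38, adjusted p = 0.0064). The exporter Abcg1 had 0 and 1.05 in purified DKO, against 149 and 164 in purified WT myotubes (adjusted p = 0.00172, limma). Acacb, the carboxylase tied to fatty acid oxidation, had 112 and 129.8 in purified DKO, against 14.9 and 23.6 in purified WT myotubes (2.62 ± 0.38, adjusted p = 0.00679).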

How the data were processed

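RNA was measured in 12 libraries of 6 groups, 8 from mixed cultures and 4 from purified myotubes. The authors deposited a normalised read count signal per gene; TopHat 1.2.0, the mm9 build and DESeq are named in the submitters' processing notes, and the read counter and annotation release are not given in the sources used here. In each library 100% of the deposited values were whole multiples of the value of 1 read, within 0.01, so whole reads could be recovered (8688604 to 41309134 a library). Gene names came from a GENCODE M21 table, which named 30983 of 36229 identifiers (85.5%); the unnamed held at most 2.83% of reads.

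Groups were taken from the labels. The main test was limma 3.58.1 (R 4.3.3) with an intensity trend on log2(value + 1), on genes whose mean over the fitted libraries was 10 or more. Tests were two-sided, p-values were adjusted by Benjamini-Hochberg over every gene in the fit, and the threshold was 0.05. The 8 mixed libraries shared a fit, the 4 purified libraries had their own, and the difference between the DKO effects used all 12. Fold changes are on the log2(value + 1) scale, which understates those of low genes. Alternatives were pseudocounts of 0.5 and 8, no filter or a mean of 50, edgeR 4.0.16 with TMM and DESeq2 1.42.0 on recovered reads, TMM scaling, sample weights, the compared groups alone, a replicate block and each library left out. The procedure was tested on simulated data, with the same spread set for every gene and library. That setting does not match the purified DKO libraries, whose replicates lay further apart than those of other groups, so no result rests on it.

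The members, the arms, the list of other sterol and fatty acid genes, the 5 marker lists and the tests were chosen with earlier results of these data known. The text names every measured member, the 3 most changed genes of the other list in Rb1 KO against WT and in purified DKO against WT, and the genes that check labels. Reads were not assigned again, and values per kilobase divide by merged exon length. Promoters came from a RefSeq table on GRCm38.p6, a build other than the authors', and were used for sequence alone.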

Additional observations from a re-analysis of the deposited data

Results flagged for a closer look

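For 16 members the DKO difference from WT in purified myotubes differed from that in mixed cultures, by a test of the difference itself in limma over all 12 libraries (log2 difference in purified minus log2 difference in mixed libraries). In the sterol arm it was 1.92 for Mvk, 1.64 for Fdps, 1.58 for Nsdhl, 1.45 for Mvd, 1.38 for Fdft1, 1.30 for Lss, 1.01 for Tm7sf2, 0.96 for Sc5d, 0.78 for Hsd17b7 and 0.72 for Msmo1. Among the sensing genes it was 2.06 for Insig1, 1.69 for Srebf1 and 1.08 for Scap, and among the fatty acid genes 1.45 for Fasn, 1.27 for Scd2 and 0.57 for Scd1. The adjusted p-values were 0.000727 to 0.0289. They rest on a spread shared by all groups and may be too small, since the purified DKO replicates lay further apart. Srebf1 passed in both library types with opposite signs, at 1.09 in purified and -0.60 in mixed libraries. Fdft1 (1.19) and Fasn (1.41) passed in purified libraries and did not pass in mixed libraries (-0.20 and -0.04), while Fdps did not pass in purified libraries (0.59) and fell in mixed libraries (-1.05). Library type and purification cannot be told apart.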

How the results depend on the processing

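Of 232 pairs of a member and a comparison, 58 never passed under any setting, and 53 of their 1011 alternatives changed sign. Over the alternatives of the other pairs, 2868 results kept their direction and side of the threshold, 156 lost the call, 43 gained one and 10 changed sign. With edgeR on recovered reads 12152 genes passed in Rb1 KO against WT (12237 with limma) and 6538 in purified DKO against WT (6598 with limma). Sample weights moved the count of all genes in the purified minus mixed difference to 2763, from 4292; the cause was not tested. TMM scaling moved the median of all genes by at most 0.0471. Replicate numbers did not pair the libraries (correlations of deviations -0.0467 to 0.0522 among mixed groups), and a replicate block left 26, 24, 9, 21, 25, 14, 12 and 16 members past the threshold in the 8 comparisons, the same counts as without it, and changed no member's call.

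With each library left out in turn, the gap between sterol and fatty acid medians was -1.41 to -1.17 in Rb1 KO against WT, -0.74 to -0.64 in DKO against WT, -0.98 to -0.79 in DKO against Kdm5a KO, -0.21 to -0.079 in the interaction, -0.40 to 0.063 in purified DKO against WT and 0.38 to 0.56 in purified minus mixed. All genes past the threshold numbered 3057 to 4697 in Kdm5a KO against WT, 1983 to 11574 in purified DKO against WT and 2471 to 8989 in purified minus mixed; members numbered 9 to 13 in the interaction and 1 to 20 in purified DKO against WT, with fewer libraries in each fit.

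Those 10 changes of sign were in results that did not pass with every library kept; without DKO purified replicate 2, Cyp51 (0.33, adjusted p = 0.0203) and Insig2 (0.67, adjusted p = 0.00646) in purified minus mixed passed with the sign turned. Leaving out 1 library gave Srebf2 -0.27 to 0.022 in DKO against WT mixed, and in purified DKO against WT Nsdhl -0.65 to 0.10 and Insig1 -0.80 to 0.095. In purified minus mixed it gave Cyp51 -0.51 to 0.33, Insig2 -0.94 to 0.67 and Stard4 -0.39 to 0.35; there edgeR gave Insig2 0.067 and Stard4 0.028, and DESeq2 gave Insig2 0.045, both on recovered reads. The cause was not tested. With 2 libraries a group, and the replicates of purified DKO far apart, small differences in purified myotubes were not detectable.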
